A study of Mus musculus with 13 samples.

Results

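Kmt2d knockout primary tumours were compared with control primary tumours in a mouse model of medulloblastoma, a childhood-type tumour of the cerebellum. The comparison took 4 knockout (KO) primary libraries and 5 control primary libraries, 9 of the 13 RNA-seq libraries of the study, and every gene that passed a low-count filter, 22265 of 53653. All tumours carried SmoM2, an active form of the Hedgehog signal transducer Smoothened, and KO tumours also carried both conditional Kmt2d alleles (SmoM2-Kmt2dCf/Cf). Control mice were 6 to 16 weeks old and KO mice 5 to 8 weeks. RNA came from GFP-positive cells sorted after papain digestion of the tumours, in pellets of 1 to 5 M cells. Control libraries are numbered 3 to 7 and KO libraries 3, 4, 6 and 7, and values below follow that order. Which promoter drove recombination, and which part of Kmt2d was deleted, is not stated in the labels. The labels do not say that libraries came from separate mice, so p-values measure the spread between these libraries, which may be technical.

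KMT2D is a histone methyltransferase that places methyl groups on lysine 4 of histone H3, mainly at enhancers, and is often mutated in medulloblastoma. Hedgehog signalling drives the division of granule neuron precursors in the young cerebellum, and the tumours of this model grow from such precursors. A precursor that leaves the cycle switches off Atoh1, its defining transcription factor, and switches on neuronal genes in sequence, first those of the growing axon and later those of synapses and ion channels.

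Total counts were 23.5 to 37.5 M in control and 35.2 to 41.4 M in KO libraries. Control 3 and KO 7 stood apart on the first principal component of log2 CPM (counts per M counts, TMM-scaled), which held 53.9% of the variance. Olfactory and vomeronasal receptor genes drew 1550 CPM in control 3, 638 CPM in KO 7, 74.7 CPM in KO 6 and 6.01 to 14.7 CPM in the other 6. The second component, with 16.9%, separated the groups (-67.5 to -4.31 in control, 19.5 to 79.1 in KO). Controls 5, 6 and 7 were female by Xist, and the other 6 libraries were male. Sex, age and genotype cannot be fully told apart in these groups. Kmt2d (chr15:98831669-98871204 on GRCm38, minus strand, protein coding) was at 78.1, 104, 175, 129 and 141 CPM in the controls and 91.7, 92.99, 111 and 168 CPM in KO libraries. The groups overlapped (log2 change -0.11, SE 0.227, edgeR adjusted p = 0.956), and since the deleted part is not given, this level checks no label. Smo was at 188, 253, 328, 285 and 305 CPM and 439, 355, 279.6 and 312 CPM, with no call (log2 change 0.35, SE 0.221, edgeR adjusted p = 0.583).

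Of the 22265 genes tested, 653 (2.93%) were called at an edgeR adjusted p below 0.05. KO libraries were higher for 257 (1.15%) and lower for 396 (1.78%). The median log2 change was -0.05 over all tested genes, 1.23 over the higher genes and -1.58 over the lower ones. All 4 KO libraries lay above or below all 5 controls for 1652 genes (7.42%), 794 higher (3.57%) and 858 lower (3.85%), and 600 of the 653 called genes were among them. Genes called were mostly of middle and high level. Only 1 of 6510 genes under 1 CPM in both groups was called, against 1.63% of those at 1 to 10 CPM, 5.76% at 10 to 100 CPM and 4.87% at 100 CPM or more. Counts of called list members below are to be read beside these shares. Protein-coding genes made up 600 of the called genes (4.05% of those tested), and 51 had no coordinates. Calls depended on single libraries. Their number was 1032 without control 3, 340 without control 4, 412 without control 7, 340 without KO 3, 277 without KO 4 and 327 without KO 6. In 9 leave-one-out fits, each without 1 of the 9 libraries, 251 of the 653 genes were called every time and 269 lost the call in 5 or more. Without the 3 female controls 138 genes were called, and of the 72 gene lists with a called member 31 had none. Without the 4 libraries of the study with over 100 CPM of receptor counts (control 3, KO 7 and 2 metastases) 1427 were. The fit without the female controls kept only controls 3 and 4, and control 3 had the most receptor counts. Fewer controls, background and sex cannot be told apart in that fit. With sex as a covariate 287 of the 653 genes were called again, and losses of this kind are given below only for some genes.

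**Figure D1:**
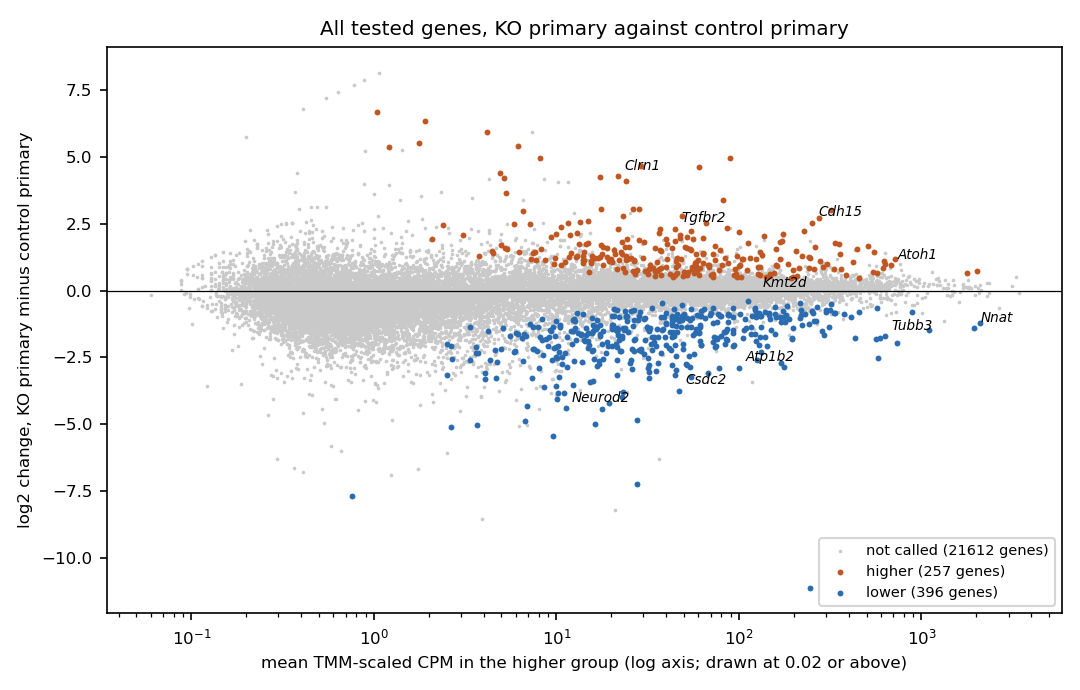
Each point is a tested gene. The x axis gives the mean TMM-scaled CPM in the group where it was higher (log axis) and the y axis the log2 change of KO primary over control primary. Of the called genes, 257 lie above 0 and 396 below, with larger changes among the lower ones (median -1.58 against 1.23).

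The rises with the smallest p included genes of cell adhesion, membrane traffic, metabolism and RNA turnover. Clrn1 (chr3:58844028-58885340), which encodes the membrane protein clarin of sensory hair cells, was at 1.18, 0.652, 0.988, 1.67 and 1.08 CPM in the controls and 22.8, 22.01, 22.5 and 19.7 CPM in KO libraries. The KO values lay in a narrow band far above every control (log2 change 4.29, SE 0.242, edgeR adjusted p = 8.57e-07). Snx11 (chr11:96767555-96777559), a sorting nexin of endosomes, was at 55.9, 31.8, 76.7, 41.8 and 35.4 CPM against 219.5, 213, 254 and 228 CPM (log2 change 2.24, SE 0.231, edgeR adjusted p = 2.60e-04). Again the lowest KO library was far above the highest control, control 5. Cdh15 (chr8:122847966-122867397), which encodes M-cadherin, an adhesion protein of muscle and of cerebellar granule cells, was at 36.01, 50.7, 36.1, 55.7 and 37.1 CPM against 319.9, 281, 164 and 243 CPM. KO 6 was the lowest KO library and still above all controls (log2 change 2.55, SE 0.264, edgeR adjusted p = 2.60e-04). Its neighbour Acsf3 (chr8:122775486-122817880), a mitochondrial malonyl-CoA synthetase, was at 39.1, 26.8, 67.01, 37.5 and 38.4 CPM against 230.3, 373, 305 and 191 CPM (log2 change 2.72, SE 0.314, edgeR adjusted p = 4.88e-04).

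Zfp36l1 (chr12:80107754-80113013), which binds AU-rich mRNAs and promotes their decay, rose from 23.3 ± 4.79 CPM (SD, n = 5) to 73.6 ± 9.96 CPM (n = 4; log2 change 1.66, edgeR adjusted p = 4.39e-04). Gypc, a glycophorin that ties the membrane to the cytoskeleton, rose from 11.5 ± 2.57 to 34.9 ± 5.72 CPM. Fam212b rose from 104 ± 18.5 to 245 ± 33.4 CPM. These 3 genes lay in bands with no overlap, at 60.2 to 83.5 CPM in KO against 18.4 to 29.8 CPM in control libraries for Zfp36l1. Nkd1, an inhibitor of Wnt signalling, was at 253 to 361 CPM in controls and 625 to 771 CPM in KO libraries. Peg12, Clrn1 and Emilin2 were under 2 CPM in every control and at 10 CPM or more in every KO library. Emilin2, a matrix glycoprotein, spread widely among the KO libraries, at 53.3, 37.9, 14.4 and 10.97 CPM. The smallest p of all tested genes was that of Tpm3-rs7, a related copy of the tropomyosin gene Tpm3, chosen here after its values were seen, at 1.75 to 3.64 CPM against 83.5 to 97.1 CPM. Its reads may be shared with Tpm3, which fell from 319 ± 33.4 to 226 ± 19.97 CPM, so both levels are uncertain, and the Tpm3 call was lost in 7 of 9 leave-one-out fits.

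**Figure D2:**
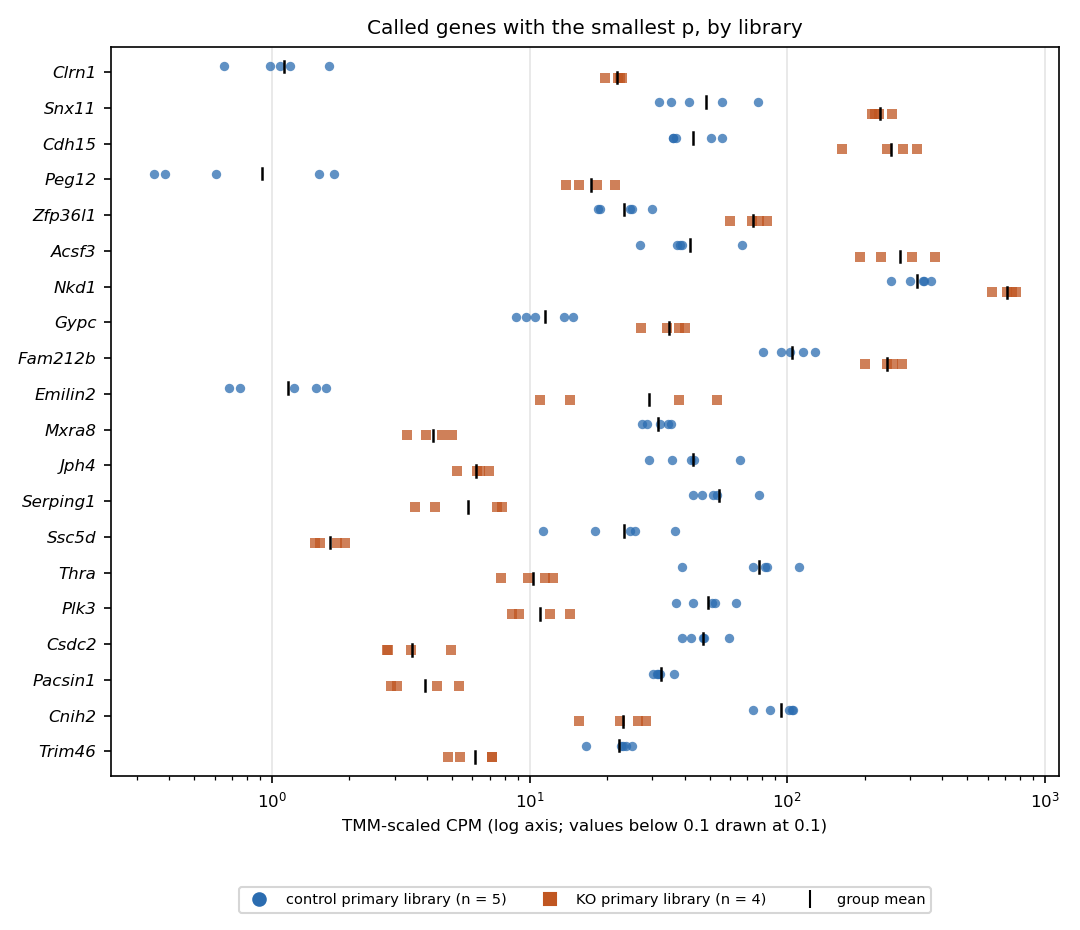
The 10 higher and 10 lower genes with the smallest p, with TMM-scaled CPM on a log axis. Circles are the 5 control libraries, squares the 4 KO libraries and bars the group means. The groups do not overlap for any of the 20, which the rule for naming them required.

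The falls with the smallest p included genes of neuronal membranes, the complement system and hormone response. Mxra8 (chr4:155839680-155844088), a cell surface immunoglobulin protein, was at 28.5, 27.3, 35.3, 32.2 and 34.6 CPM in the controls and 3.36, 5.01, 3.97 and 4.58 CPM in KO libraries (log2 change -2.90, SE 0.201, edgeR adjusted p = 7.99e-06). Both groups were tight, with the highest KO library far under the lowest control. Jph4 (chr14:55106826-55116935), a junctophilin that joins the endoplasmic reticulum to the neuronal plasma membrane, was at 29.1, 65.6, 35.8, 42.4 and 43.4 CPM against 6.98, 6.23, 5.24 and 6.45 CPM (log2 change -2.80, SE 0.234, edgeR adjusted p = 6.82e-05). Serping1 (chr2:84765387-84775444), the complement C1 inhibitor, was at 43.1, 77.4, 53.4, 46.6 and 51.4 CPM against 7.84, 4.298, 3.597 and 7.45 CPM (log2 change -3.23, SE 0.285, edgeR adjusted p = 1.04e-04). Control 4 was the highest library for Jph4 and Serping1. Thra (chr11:98740638-98769006), the thyroid hormone receptor alpha, was at 39.02, 82.3, 73.8, 83.1 and 111 CPM against 7.76, 9.88, 11.5 and 12.3 CPM (log2 change -2.91, SE 0.27, edgeR adjusted p = 1.26e-04). It overlaps Nr1d1 on the other strand, which, looked up for that reason, had a log2 change of -0.81 and no call (edgeR adjusted p = 0.303), and the strand setting of the counting is not given.

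Among the other falls, Pacsin1, an adaptor of vesicle endocytosis, was at 31.1, 36.4, 32.04, 30.3 and 31.5 CPM in the controls, a narrow band, and at 5.31, 3.07, 4.39 and 2.898 CPM in KO libraries. Cnih2, an auxiliary subunit of AMPA receptors, fell from 94.2 ± 14 to 23.1 ± 5.64 CPM. Trim46, which organises microtubules of the axon initial segment, fell from 22.2 ± 3.29 to 6.12 ± 1.21 CPM. Plk3, a stress-responsive kinase, fell from 49.4 ± 10.01 to 11.01 ± 2.703 CPM. Outside neuronal membranes, Il11ra1, the interleukin 11 receptor, fell from 45.4 ± 6.14 to 5.82 ± 1.82 CPM. Rdh5, a retinol dehydrogenase, fell from 35.97 ± 8.298 to 10.8 ± 1.82 CPM and Slc2a4, the insulin-responsive glucose transporter GLUT4, from 92.7 ± 17.9 to 30.99 ± 6.29 CPM. None of these 7 lost its call in the 9 leave-one-out fits. Cnih2, Trim46, Il11ra1 and Rdh5 overlap other genes, so part of their counts may be shared.

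The labels give granule cell precursors as the cell type, and their defining factor Atoh1 was present in every library, at 326, 309, 425, 378 and 314 CPM in the controls and 653, 787, 589.9 and 706 CPM in KO libraries, with no overlap (log2 change 0.97, SE 0.203, edgeR adjusted p = 0.0199). The call of Atoh1 was lost in 4 of 9 leave-one-out fits, without the female controls and with sex as a covariate (edgeR adjusted p up to 0.185). Of 14 tested granule precursor markers, 2 rose, Atoh1 and Ccnd1, and 1 fell, Mfap4 (14.3% and 7.14%, median 0.34). Mfap4 kept its call in all 9 leave-one-out fits, and no marker of this list was called without the female controls. Transcription factors of this lineage moved in both directions. Of 40 tested basic helix-loop-helix factors, 3 rose and 6 fell (7.5% and 15%, against 1.15% and 1.78% of all genes). Without the female controls 1 was called higher and none lower, and the median turned from -0.09 to 0.124. Those that rose were Atoh1, Id2 and Hes1. Id2, which blocks other factors of the family by pairing with them, was at 181, 143, 179, 131 and 121 CPM in the controls and 330.0, 606, 464 and 379 CPM in KO libraries (log2 change 1.56, SE 0.191, edgeR adjusted p = 7.13e-04). All KO libraries were above all controls. Hes1, a Notch target that represses neuronal factors, was named after its values were seen, at 11.2, 2.4, 23.2, 13.3 and 8.48 CPM against 46.1, 75.2, 78.2 and 20.2 CPM. KO 7 overlapped the controls there (edgeR adjusted p = 0.0389), and the call was lost in 6 of 9 leave-one-out fits. Those that fell were Neurod1, Neurod2, Neurod4, Nhlh1, Nhlh2 and Scx, the first 5 of which act in neuronal differentiation, and Scx was called in 4 of 9 leave-one-out fits. Neurod4 was at 38.5, 97.2, 64.9, 75.4 and 89.9 CPM against 18.7, 19.8, 21.3 and 28.96 CPM (log2 change -1.72, SE 0.262, edgeR adjusted p = 0.00282). Nhlh1 and Neurod2 were also named after their values were seen. Nhlh1 was at 47.04, 51.2, 63.4, 47.6 and 60.1 CPM against 26.9, 24.4, 23.8 and 24.4 CPM, a narrow band in the KO libraries (edgeR adjusted p = 0.0164). Neurod2 was at 4.34, 12.6, 15.5, 6.28 and 17.4 CPM against 0.834, 0.0272, 0.344 and 0.894 CPM, with every KO library under 1 CPM.

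Homeobox factors outside the Hox clusters had 6 rises and 2 falls among 74 tested (8.11% and 2.7%, against 1.15% and 1.78% of all genes). Their median log2 change was 0.16. Tlx3, a factor of sensory and brainstem neurons, was at 36.1, 22.2, 19.8, 18.1 and 13.8 CPM in the controls and 125, 105, 117 and 51.7 CPM in KO libraries, lowest in KO 7 (log2 change 2.18, SE 0.298, edgeR adjusted p = 0.00132). Alx4 was at 46.1, 40.4, 63.2, 52.02 and 66.2 CPM against 207, 160.3, 136 and 132 CPM (log2 change 1.57, SE 0.198, edgeR adjusted p = 8.83e-04). Isl1, Shox2 and Pou4f1, which mark other neuronal types or regions, also rose and were named after their values were seen, and Shox2 and Pou4f1 were called in 6 of 9 leave-one-out fits each. Isl1 had at most 0.29 CPM in any control and 1.84 to 7.51 CPM in KO libraries, and Shox2 0 to 0.1901 against 0.529 to 3.94 CPM. Genes this low in the controls passed the count filter through the KO libraries. Pou2f2 fell, at 9.62, 12.3, 13.9, 10.9 and 15.4 CPM against 0.677, 2.01, 1.56 and 3.77 CPM, and Uncx, the other fall and outside the naming rule, went from 409 ± 68.97 to 207 ± 27.8 CPM and was called in 6 of 9 leave-one-out fits.

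Myt1, a zinc finger factor of neuronal differentiation, fell, at 29.6, 54.9, 35.7, 57.8 and 44.97 CPM in the controls and 11.8, 8.24, 9.997 and 13.1 CPM in KO libraries (log2 change -2.05, SE 0.285, edgeR adjusted p = 0.00149). Of 16 SOX factors, Sox9 and Sox2, factors of neural progenitors and glia, rose and none fell. Sox9 was at 278, 229.9, 281, 336 and 311 CPM against 727, 647, 665 and 440.0 CPM and Sox2 at 18.8, 13.6, 20.5, 17.1 and 11.9 CPM against 49.3, 59.1, 63.9 and 29.8 CPM. The groups did not overlap for either gene, and KO 7 was the lowest KO library for both. The call of Sox2 was lost in 6 of 9 leave-one-out fits. The NFI, MEF2, ETS and ATF/CREB factors had 5 rises and no fall among 40 tested (median 0.27), in Nfia, Mef2c, Etv5, Elk3 and Atf1, and 1 was called without the female controls. Nfia, which acts in granule cell maturation and gliogenesis, rose from 1222 ± 230.2 to 2015 ± 147 CPM, with the call lost in 4 of 9 leave-one-out fits. The calls of Mef2c and Etv5 were lost in 5 of those fits each, and Elk3 was called in 3 and Atf1 in 2 of the 9. Foxp2 rose from 52.4 ± 12.9 to 100.2 ± 11.2 CPM.

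Rest and Rcor2 were named after their values were seen. Rest, a repressor of neuronal genes, was at 5.59, 6.61, 17.8, 5.34 and 5.49 CPM in the controls and 36.4, 47.9, 41.02 and 20.4 CPM in KO libraries (log2 change 2.16, SE 0.398, edgeR adjusted p = 0.009). Control 5 was near KO 7, and the others were well apart. Rcor2, a corepressor of the CoREST family, was at 276, 496, 448, 463 and 488 CPM against 109.8, 100.4, 121 and 179 CPM (log2 change -1.77, SE 0.213, edgeR adjusted p = 6.36e-04), with control 3 the lowest control and KO 7 the highest KO library.

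**Figure D3:**
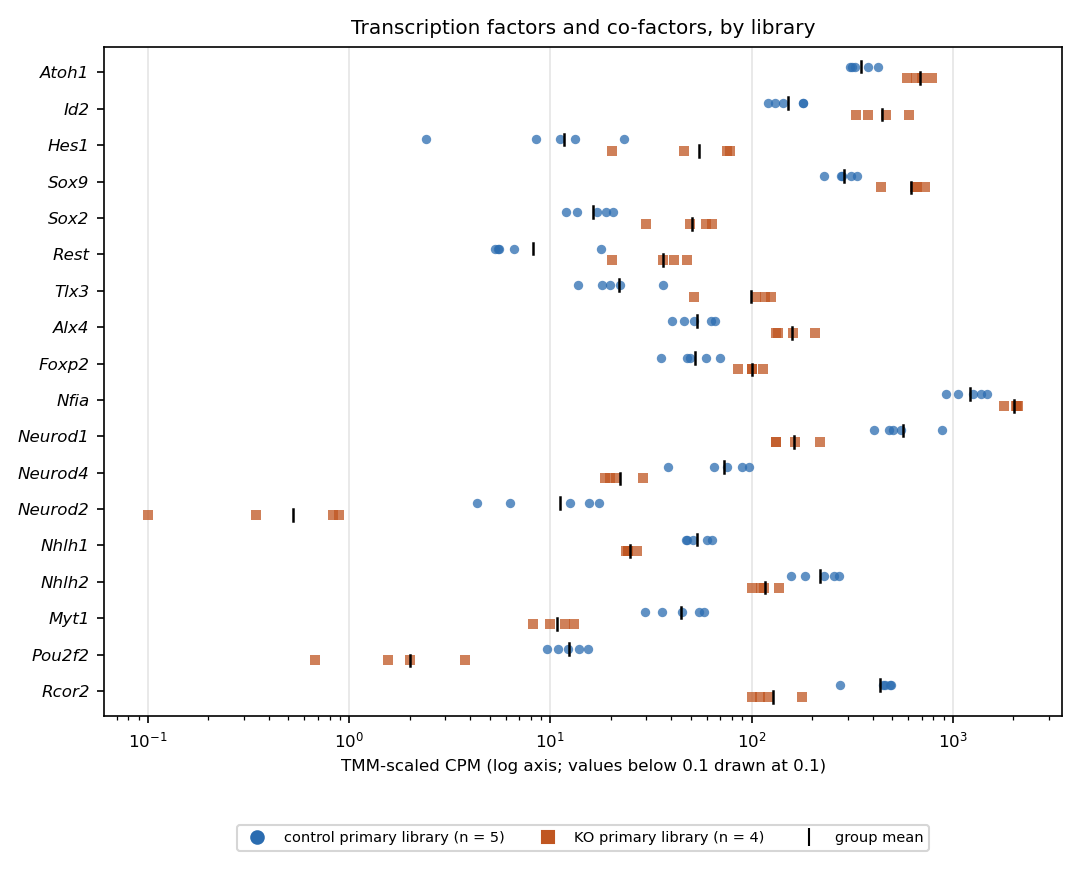
TMM-scaled CPM of 18 transcription factors and co-factors on a log axis, with circles for the 5 control libraries, squares for the 4 KO libraries and bars for group means. The first 10 genes rose in KO libraries and the last 8 fell. Only Hes1 has a KO library inside the control range.

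Promoter sequences are shown for genes that rose and genes that fell, so that their letters can be read beside the values above. They are the 250 bases before the first listed RefSeq start site of each gene on GRCm38.p6, on the strand of the gene. Other start sites of a gene were not looked at. The Nkd1 stretch lies inside the GENCODE gene, which starts at 88521354, and the Clrn1 stretch lies partly inside it (gene end 58885340). These may not be the main promoters of the 2 genes. Capitals mark CAGATG, a sequence that neuronal basic helix-loop-helix dimers can bind, or CAGCTG, another E-box, on either strand.
Clrn1, higher in KO (chr3:58885213-58885462, minus strand): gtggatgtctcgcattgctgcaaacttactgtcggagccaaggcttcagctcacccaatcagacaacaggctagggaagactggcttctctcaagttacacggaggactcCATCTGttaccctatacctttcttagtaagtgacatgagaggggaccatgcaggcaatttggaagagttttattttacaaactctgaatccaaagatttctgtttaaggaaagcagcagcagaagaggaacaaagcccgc
Acsf3, higher in KO (chr8:122775236-122775485, plus strand): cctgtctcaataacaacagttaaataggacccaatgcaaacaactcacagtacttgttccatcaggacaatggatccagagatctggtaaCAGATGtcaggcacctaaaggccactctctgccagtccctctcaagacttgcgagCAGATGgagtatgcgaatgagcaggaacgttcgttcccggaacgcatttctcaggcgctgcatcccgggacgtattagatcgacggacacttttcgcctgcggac
Nkd1, higher in KO (chr8:88527383-88527632, plus strand): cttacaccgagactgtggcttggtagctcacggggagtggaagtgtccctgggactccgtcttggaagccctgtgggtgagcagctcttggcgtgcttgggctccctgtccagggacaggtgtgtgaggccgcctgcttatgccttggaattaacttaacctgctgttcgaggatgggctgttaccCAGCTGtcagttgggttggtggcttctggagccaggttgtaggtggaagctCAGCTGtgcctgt
Mxra8, lower in KO (chr4:155839430-155839679, plus strand): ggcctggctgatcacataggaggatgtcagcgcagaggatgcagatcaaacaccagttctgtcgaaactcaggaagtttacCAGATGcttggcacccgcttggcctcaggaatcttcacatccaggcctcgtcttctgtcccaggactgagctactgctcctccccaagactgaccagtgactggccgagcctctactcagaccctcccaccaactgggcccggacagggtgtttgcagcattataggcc
Nhlh1, lower in KO (chr1:172057597-172057846, minus strand): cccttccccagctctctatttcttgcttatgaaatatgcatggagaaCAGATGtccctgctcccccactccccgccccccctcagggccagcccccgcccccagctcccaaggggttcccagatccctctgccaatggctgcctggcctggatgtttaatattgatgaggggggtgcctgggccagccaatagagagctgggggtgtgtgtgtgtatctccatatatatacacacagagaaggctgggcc
Neurod2, lower in KO (chr11:98329646-98329895, minus strand): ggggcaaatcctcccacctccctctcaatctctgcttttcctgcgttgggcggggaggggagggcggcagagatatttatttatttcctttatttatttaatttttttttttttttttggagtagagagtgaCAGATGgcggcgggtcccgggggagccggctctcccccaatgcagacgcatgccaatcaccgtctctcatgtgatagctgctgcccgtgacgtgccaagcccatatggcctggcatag
Acsf3 and Nkd1 held 2 matches each and the other 4 held 1 each. These genes were chosen because they were called and held a match.

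Of the tested genes, 11798 had a promoter in the RefSeq table, 173 of the higher genes and 278 of the lower, and the first listed start of each was used. CAGATG stood on either strand of the 300-base window (250 before and 50 after the start) in 15% of the higher and 16.9% of the lower genes. It stood in 11.2% of genes of at least 1 CPM that were not called and in 12.6% of all tested. CAGCTG stood in 22.5% of the higher genes, 18.3% of the lower and 14.7% of those not called. The windows also differed in CpG content. The ratio of observed to expected CpG was over 0.6 in 65.3% of the higher genes, 50.4% of the lower and 74.3% of those not called, with medians of 0.722, 0.602 and 0.772. Nhlh1 had 2 CpG sites in its 300 bases (ratio 0.084), Clrn1 6 (0.34) and Acsf3 15 (0.769).

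GGACAGCG, the core of the right side of the element that REST binds, stood on either strand in 2.89% of the higher and 3.6% of the lower genes, against 2.3% of those not called and 2.07% of all tested. Capitals mark it in the 250 bases before the start of Rcor2 and in a 27-base stretch just after the start of Unc13a, where it lies on the other strand.
Rcor2, lower in KO (chr19:7267144-7267393, plus strand): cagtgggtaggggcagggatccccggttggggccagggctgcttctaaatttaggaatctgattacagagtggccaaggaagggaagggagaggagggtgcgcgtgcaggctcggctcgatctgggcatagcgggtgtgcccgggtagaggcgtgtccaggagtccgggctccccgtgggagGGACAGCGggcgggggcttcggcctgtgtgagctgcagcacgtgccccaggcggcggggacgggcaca
Unc13a, lower in KO (chr8:71671727-71671753, minus strand): ggCGCTGTCCgcgcccccggtgctgaa
Unc13a, a vesicle priming factor chosen after its values were seen, was at 61.6, 74.1, 77.3, 74.97 and 64.8 CPM in the controls and 43.9, 33.1, 31.5 and 51.4 CPM in KO libraries (log2 change -0.82, SE 0.178, edgeR adjusted p = 0.0225). No KO library reached the lowest control, and the call was lost in 4 of 9 leave-one-out fits. A match is a description of these letters and not a binding site.

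Genes of early granule neuron differentiation fell most often among the lists, with 11 of 20 lower and none higher (55% against 1.78% of all genes). Their median log2 change was -0.99. Cntn2, the axonal adhesion protein TAG-1 of newly postmitotic granule cells, was chosen after its values were seen, at 204, 777, 423, 728 and 758 CPM in the controls and 144, 87.1, 78.8 and 88.9 CPM in KO libraries (log2 change -2.54, SE 0.467, edgeR adjusted p = 0.00895). Control 3 was the lowest control and lay above the highest KO library, KO 3. Tubb2a, a neuronal beta tubulin, fell from 168 ± 43.1 to 85.2 ± 6.63 CPM, a call lost without KO 4 (edgeR adjusted p = 0.0511). The other 9 members did not pass the test, among them, picked after their values were seen, Insm1 (776 ± 168 against 727 ± 34.7 CPM), an early factor of the transition, and Rbfox3 (203 ± 30.5 against 267 ± 22.6 CPM), which encodes the neuronal marker NeuN. Without the 3 female controls 4 members were called lower, and without the libraries of high receptor counts 13 were.

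Synaptic vesicle and release genes had 16 falls and 4 rises among 72 tested, 22.2% lower and 5.56% higher, with a median of -0.79. Rab3a (chr8:70754679-70758677), a GTPase of vesicle docking, was at 146, 163, 101, 110.0 and 123.5 CPM in the controls and 42.3, 30.1, 32.6 and 21.7 CPM in KO libraries (log2 change -2.02, SE 0.237, edgeR adjusted p = 5.63e-04). The groups were far apart. It overlaps the end of Mpv17l2 on the other strand, which was looked up for that reason and also fell, from 72.5 ± 7.95 to 31.3 ± 4.14 CPM. Rab3d, a relative of Rab3a, was at 41.4, 69.1, 42.3, 54.5 and 65.7 CPM against 21.9, 19.7, 22.4 and 20.4 CPM (log2 change -1.37, SE 0.186, edgeR adjusted p = 0.00123). Dnm1, the neuronal dynamin of endocytosis, was chosen after its values were seen, at 14.5 to 37.8 CPM against 0.104 to 3.33 CPM. The 4 rises were in Cplx2, Syngr2, Syt13 and Syt16, of which Syngr2 was called in 4 and Syt13 in 1 of 9 leave-one-out fits. Cplx2, a complexin, was at 46.4, 48.6, 46.2, 49.9 and 46.8 CPM against 160.3, 144, 147 and 71.2 CPM and was also chosen after its values were seen, with a call lost in 7 of 9 leave-one-out fits. Without the female controls 4 members of the list were called lower, and without the libraries of high receptor counts 29 were.

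Synaptic adhesion genes had 11 falls and 3 rises among 72 (median -0.53). Without the female controls 1 member was called lower and 1 higher. Cadm3, an immunoglobulin adhesion protein, was at 31.4, 51.8, 56.02, 39.7 and 41.96 CPM in the controls and 11.5, 12.03, 12.9 and 17.9 CPM in KO libraries (log2 change -1.70, SE 0.209, edgeR adjusted p = 7.13e-04). Nrxn2, a presynaptic neurexin, fell from 23.1 ± 3.59 to 8.73 ± 2.12 CPM, and Lrrc4b, a postsynaptic partner of adhesion, from 38.8 ± 3.15 to 19.7 ± 4.199 CPM. The calls of Nrxn2 and Lrrc4b were lost without the female controls. In the postsynaptic list 3 of 38 fell and none rose. Dlg4, the scaffold PSD-95, was at 34.3, 26.01, 42.8, 36.7 and 30.8 CPM against 9.43, 8.49, 8.54 and 14.03 CPM, highest among KO libraries in KO 7 (log2 change -1.75, SE 0.219, edgeR adjusted p = 8.27e-04). Of 27 glutamate receptors 3 fell and 1 rose (median -0.85), and without the female controls 1 was called higher and none lower.

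Ion channel genes were shifted downward with few calls. All 13 tested sodium channel genes had a negative log2 change (median -1.02) and none was called by edgeR at the adjusted threshold. At an unadjusted p below 0.05 edgeR gave 3, DESeq2 called 2 after adjustment, and voom with quality weights called 5 lower. Scn8a, the member with the most counts, was picked after its values were seen and stood at 71.95, 98.8, 139, 95.7 and 103 CPM in the controls and 72.8, 73.1, 66.1 and 114 CPM in KO libraries, with overlap. Of 24 calcium channel genes 22 were negative (median -0.83), and 1 was called, Cacna2d3, at 10.7 to 27.6 against 3.96 to 7.15 CPM, a call lost in 6 of 9 leave-one-out fits. Potassium channels had 7 falls and 2 rises among 79 (median -0.48). Kcnip3, a channel-binding calcium sensor, was at 79.6, 93.9, 77.6, 79.6 and 66.99 CPM in the controls and 30.3, 28.8, 24.8 and 14.7 CPM in KO libraries (log2 change -1.69, SE 0.216, edgeR adjusted p = 8.86e-04). The groups did not overlap.

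The sodium-potassium pump and aquaporin list had 6 falls and no rise among 15 tested (40.0% lower, median -0.72). Atp1b2 (chr11:69599736-69605942), a beta subunit of the pump, was at 68.5, 140.1, 96.2, 96.6 and 101 CPM in the controls and 8.699, 17.1, 10.8 and 17.8 CPM in KO libraries (log2 change -2.89, SE 0.314, edgeR adjusted p = 3.10e-04). Every control was several times above every KO library. Atp1b1 fell from 15.97 ± 4.71 to 6.37 ± 0.752 CPM and Atp1b3 from 315 ± 34.97 to 191 ± 22.5 CPM, so 3 beta subunits fell. The calls of Atp1b1 and Atp1b3 were lost without the female controls, and that of Atp1b3 also with sex as a covariate. Aqp4, a water channel that is also a marker of astrocytes, fell from 16.6 ± 9.17 to 2.32 ± 1.71 CPM and was named after its values were seen. Its call was lost in 6 of 9 leave-one-out fits, with the replicate number as a block, without the female controls and with sex as a covariate. In the astrocyte list, which also holds it, 1 of 12 rose (Sox9) and 1 fell (Aqp4). Without the female controls 1 member of the pump and aquaporin list was called lower.

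Neuropeptide and granule genes had 5 falls and no rise among 28 (17.9% lower). Pcsk1n, an inhibitor of prohormone cleavage, was at 50.2, 38.4, 28.8, 21.4 and 37.6 CPM in the controls and 8.36, 7.999, 8.75 and 8.34 CPM in KO libraries (log2 change -2.08, SE 0.273, edgeR adjusted p = 0.00109). The KO libraries differed little among themselves. Nxph1, a secreted partner of neurexins, fell from 10.3 ± 1.5 to 2.096 ± 0.526 CPM. Of the receptors of such peptides, Galr1, a galanin receptor, was at 24.6, 57.7, 37.3, 35.9 and 40.6 CPM against 11.8, 12.2, 11.5 and 11.5 CPM, again a narrow band in KO (edgeR adjusted p = 0.00255).

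**Figure D4:**
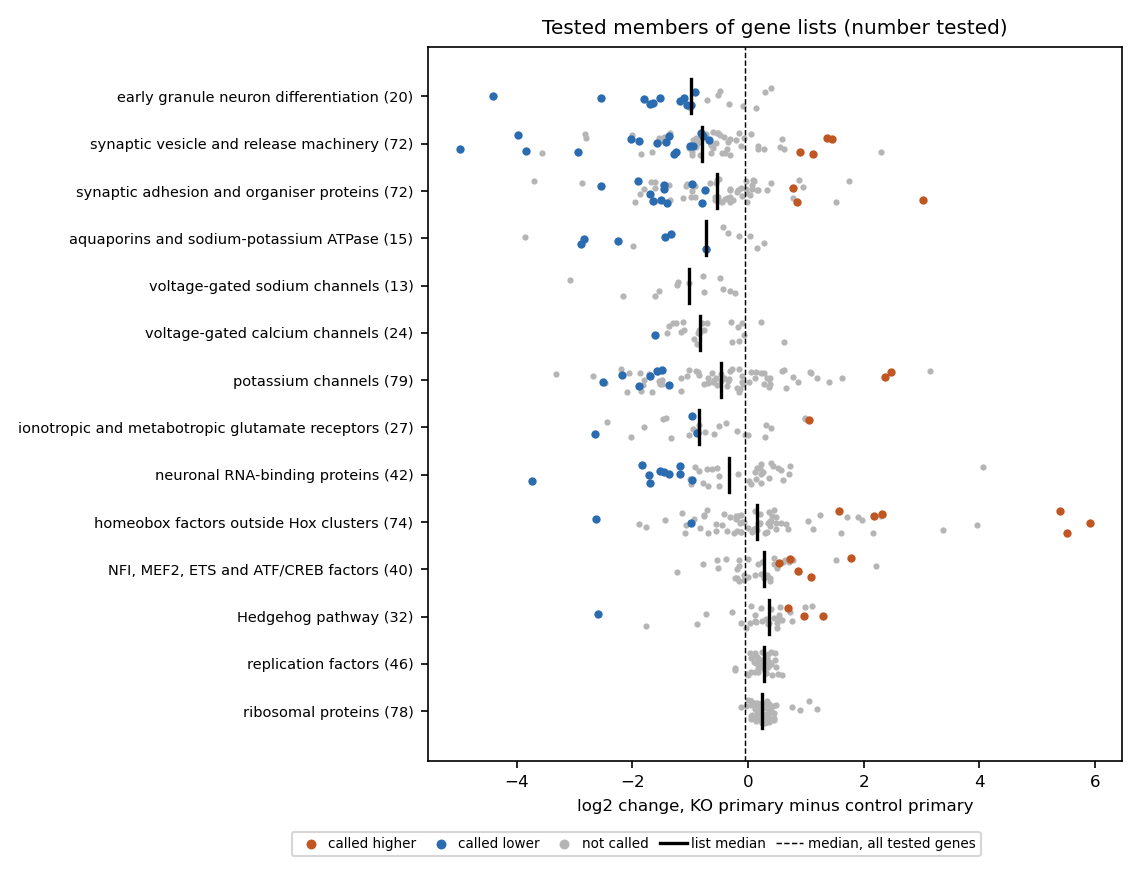
Each point is a tested member of a gene list, placed by its log2 change (KO primary minus control primary) and coloured where called higher or lower. Black bars are list medians and the dashed line is the median of all tested genes (-0.05). Early differentiation, synapse, pump and channel lists lie to the left of it, and replication factors and ribosomal proteins to the right without a call.

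Neuronal RNA-binding proteins had 10 falls and no rise among 42 tested (23.8% lower, median -0.34). With the receptor level or the hemisphere as a covariate the median changed sign. Celf4, a regulator of mRNA stability and splicing, was at 93.97, 148, 142, 128 and 141 CPM in the controls and 39.2, 32.9, 35.1 and 51.2 CPM in KO libraries (log2 change -1.72, SE 0.23, edgeR adjusted p = 0.00117). The lowest control lay above the highest KO library. Celf3, Celf5 and Celf6, of the same family, were named after their values were seen and fell from 61.2 ± 4.89 to 23.8 ± 7.1 CPM, from 17.4 ± 5.13 to 5.38 ± 2.06 CPM and from 23.5 ± 6.26 to 8.56 ± 1.62 CPM. Csdc2, a cold shock domain protein, was at 42.2, 47.04, 38.96, 59.2 and 47.7 CPM against 4.95, 2.802, 3.46 and 2.82 CPM (log2 change -3.74, SE 0.355, edgeR adjusted p = 1.41e-04). Nova2, Srrm3 and Srrm4, splicing factors of neurons chosen in the same way, also fell, Srrm4 from 76.1 ± 21.6 to 33.8 ± 10.1 CPM with a call lost in 7 of 9 leave-one-out fits.

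In the cytoskeleton, 7 of 40 microtubule-associated proteins fell and 1 rose (median -0.29). Map6, which stabilises microtubules, was at 69.3, 134.3, 84.4, 114 and 122.9 CPM in the controls and 27.97, 22.9, 26.4 and 46.2 CPM in KO libraries (edgeR adjusted p = 0.00435). No KO library reached a control. Of 19 tubulins 3 fell, and Tubb4a, a neuronal beta tubulin, went from 291 ± 84.5 to 92.6 ± 9.89 CPM. Among intermediate filaments, Lmna, the nuclear lamin A gene, fell from 31.8 ± 6.63 to 11.9 ± 1.41 CPM and Krt10, a keratin, from 133 ± 47.1 to 27.3 ± 13.01 CPM. Vim, the vimentin gene of progenitors and glia, moved the other way, at 123.7, 122, 144, 127 and 174 CPM against 324, 452, 413 and 235 CPM (log2 change 1.37, SE 0.248, edgeR adjusted p = 0.00815).

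Hedgehog pathway genes had 3 rises and 1 fall among 32 tested, with a median of 0.36, and no member was called without the female controls. The rises were in Ccnd1, a cyclin, Gas1, a coreceptor, and Atoh1, and the fall in Disp2, named after its values were seen. Ccnd1 and Gas1, like Atoh1, lost the call with sex as a covariate too, and Disp2 was called in 2 of 9 leave-one-out fits. Gli1, the transcriptional target and effector, was chosen after its values were seen and stood at 63.6, 105, 176, 137 and 105 CPM in the controls and 188, 160.2, 170.2 and 173 CPM in KO libraries. The groups overlapped, since control 5 was within the KO values (edgeR adjusted p = 0.27). Of 54 genes of the primary cilium, where the signal is relayed, 2 rose and none fell. Ift27, a GTPase of intraflagellar transport, was at 99.4, 61.4, 73.2, 64.3 and 65.8 CPM against 156, 194, 199.7 and 119 CPM (log2 change 1.199, SE 0.195, edgeR adjusted p = 0.00431). The call of Ift27 was lost without the female controls and with sex as a covariate.

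Among receptors of other signals, Tgfbr2 (chr9:116084293-116175360), the type II receptor of TGF-beta, was at 9.13, 6.87, 10.98, 10.8 and 7.401 CPM in the controls and 63.8, 58.4, 36.2 and 21.2 CPM in KO libraries (log2 change 2.31, SE 0.372, edgeR adjusted p = 0.004001). KO 7 was the lowest KO library and still above all controls. Smad3, which carries the TGF-beta signal to the nucleus, rose from 45.6 ± 8.59 to 104 ± 29.3 CPM, a call lost without KO 3 (edgeR adjusted p = 0.0557). Ltbp3, which binds latent TGF-beta in the matrix, fell from 150.3 ± 49.7 to 54.1 ± 5.14 CPM. These were the 3 called among 53 genes of the BMP and TGF-beta list, whose median was 0.01 and changed sign under 14 of 21 alternatives. The calls of all 3 were lost without the female controls, and those of Smad3 and Ltbp3 also with sex as a covariate. In the Wnt list 3 of 43 tested rose and 1 fell (6.98% and 2.33%, against 1.15% and 1.78% of all genes). Wnt4, a ligand, rose from 53.5 ± 22.2 to 133 ± 25.7 CPM. Tcf7l1, a repressor at Wnt targets, rose from 5.41 ± 2.94 to 17.6 ± 5.34 CPM. The calls of Wnt4 and Tcf7l1 were lost in 4 and 5 of 9 leave-one-out fits, and that of Tcf7l1 also without the female controls.

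Guidance receptors fell and rose. Ephb1 was at 18.2, 24.4, 23.8, 9.43 and 14.2 CPM in the controls and 3.07, 1.496, 3.23 and 4.39 CPM in KO libraries (log2 change -2.56, SE 0.383, edgeR adjusted p = 0.00253). Efnb3, a transmembrane ephrin, fell from 56.1 ± 14.5 to 17.8 ± 6.26 CPM. Epha3 rose, at 28.1, 47.1, 64.5, 18.7 and 10.6 CPM against 209, 163, 85.8 and 91.4 CPM, with a wide spread in both groups and a call lost in 5 of 9 leave-one-out fits. Of 31 semaphorins, plexins and neuropilins 4 fell and 1 rose. Vldlr, a reelin receptor of migrating neurons, was at 33.1, 29.1, 42.5, 23.9 and 33.7 CPM against 183, 100.4, 106 and 57.3 CPM, highest in KO 3 (log2 change 1.79, SE 0.329, edgeR adjusted p = 0.00892). The calls of Efnb3, Epha3 and Vldlr were lost without the female controls and with sex as a covariate. Nfasc, an adhesion protein of the axon initial segment, fell from 32.3 ± 11.05 to 11.6 ± 2.78 CPM, a call lost without the female controls. In the Notch list, Mfng, a fringe enzyme that modifies the receptors, was at 20.3, 27.4, 87.8, 36.8 and 33.5 CPM against 11.2, 9.55, 5.24 and 11.5 CPM, with control 5 far above the other controls. The call of Mfng was lost without KO 3, KO 4 or KO 6, without the female controls and with sex as a covariate.

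Matrix genes moved in both directions, with 5 rises and 5 falls among 84 tested (5.95% each, against 1.15% and 1.78% of all genes). Ncan, a chondroitin sulphate proteoglycan of neural tissue, was at 41.03, 34.5, 118, 81.1 and 63.4 CPM in the controls and 7.74, 9.14, 6.24 and 8.83 CPM in KO libraries (log2 change -3.08, SE 0.347, edgeR adjusted p = 4.25e-04). The controls spread widely, from control 4 to control 5, and all lay well above the KO libraries. Loxl1, a cross-linking enzyme of elastin, and Sparc, a collagen-binding protein, were chosen after their values were seen. Loxl1 rose from 40.3 ± 29.1 to 174 ± 59.4 CPM and Sparc fell from 18.7 ± 5.43 to 3.73 ± 2.64 CPM, with calls lost in 5 and 4 of 9 leave-one-out fits. Collagens had 4 rises and 2 falls among 41, and their median of -0.67 changed sign without control 3 and with voom. The rises held the basement membrane genes Col4a1, Col4a2, Col4a5 and Col18a1. Col4a1 was at 57.6, 53.9, 93.4, 113 and 101 CPM against 304, 373, 211 and 162 CPM, with no overlap and a call lost in 8 of 9 leave-one-out fits. Col18a1 was called in 3 of those fits and Col4a2 and Col4a5 in 2 each. Col9a3 fell from 256 ± 87.8 to 117 ± 20.7 CPM, a call lost in 7 of those fits. Of 30 cadherins 3 rose and none fell, Cdh15, Fat3 and Cdh13, and the calls of Fat3 and Cdh13 were lost in 3 and 6 of 9 leave-one-out fits.

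Chromatin remodellers had 3 falls and 2 rises among 79 tested (6.33% called). Of all tested genes 2.93% were called, and of those at 10 to 100 CPM 5.76%, near the share of this list. Actl6b, the BAF subunit of postmitotic neurons, was at 76.3, 68.8, 41.3, 59.97 and 62.8 CPM in the controls and 13.7, 9.196, 18.1 and 19.4 CPM in KO libraries (log2 change -2.03, SE 0.2802, edgeR adjusted p = 0.00136). Smarcd1, another BAF subunit, was at 66.4, 103, 84.4, 106 and 104 CPM against 18.3, 23.7, 24.3 and 22.5 CPM (log2 change -2.06, SE 0.299, edgeR adjusted p = 0.001997). No KO value of either gene reached a control. Smarcd3, named after its values were seen, fell from 20.3 ± 3.33 to 10.5 ± 2.34 CPM, a call lost in 6 of 9 leave-one-out fits. Brd7 and Phf10, subunits of the PBAF form, rose from 115 ± 16.4 to 198 ± 17.4 CPM and from 34.5 ± 6.15 to 52.1 ± 5.76 CPM. Phf10 was chosen after its values were seen, and its call was lost in 8 of 9 leave-one-out fits. None of 25 tested COMPASS genes (the complexes of KMT2 enzymes) was called by edgeR, nor any of 32 Polycomb genes, with medians of 0.07 and 0.15. At an unadjusted p below 0.05 edgeR gave 1 COMPASS gene and 7 Polycomb genes (5 higher, 2 lower), and DESeq2 called 1 and 3. Voom called 2 COMPASS genes higher and 1 lower, and 4 Polycomb genes higher and 2 lower. Kmt2c, the close relative of Kmt2d, was chosen after its values were seen and stood at 178 ± 43.7 against 176 ± 21.9 CPM.

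Imprinted genes had 4 rises and 4 falls among 65 (6.15% each, against 1.15% and 1.78% of all genes). Peg12, expressed from the paternal allele, was at 1.52, 0.385, 0.608, 1.74 and 0.3499 CPM in the controls and 13.9, 21.4, 18.2 and 15.6 CPM in KO libraries (log2 change 4.24, SE 0.465, edgeR adjusted p = 3.32e-04). Nnat, a paternally expressed proteolipid gene of developing brain, was at 2359, 1849, 1596, 1642 and 2287 CPM against 856, 772, 643 and 659.6 CPM (log2 change -1.41, SE 0.211, edgeR adjusted p = 0.00254). The groups were apart for both genes, in opposite directions. Nnat lies within Blcap, on the other strand. Begain, a postsynaptic protein gene, rose from 16.7 ± 2.38 to 32.7 ± 3.797 CPM.

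Genes of growth were shifted slightly upward with few calls. Of 46 replication factors 42 had a positive log2 change, of 52 DNA repair genes 47 and of 78 ribosomal protein genes 76, with medians of 0.27, 0.26 and 0.23. None of these was called by edgeR. In the same order, 16, 15 and 3 had an unadjusted edgeR p below 0.05, DESeq2 called 2, 6 and 2, and voom called 13, 12 and 33. In the list of serine, one-carbon and nucleotide synthesis 33 of 35 were positive (median 0.31) and 2 were called (5.71%). Of all tested genes 2.93% were called, and of those at 100 CPM or more 4.87%, near the share of this list. Phgdh, the first enzyme of serine synthesis, was at 243, 174, 203, 226 and 181 CPM in the controls and 452, 357, 373 and 258 CPM in KO libraries (edgeR adjusted p = 0.0233). Paics, of purine synthesis, rose from 325 ± 24.2 to 454 ± 52.1 CPM. Both calls were lost in 7 of 9 leave-one-out fits. E2f5 rose from 40.2 ± 2.89 to 60.1 ± 9.44 CPM, a call lost in as many, with all 13 E2F and retinoblastoma genes positive.

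Called genes were in places next to each other on the chromosome. Among 15780 tested genes with coordinates, 602 were called (3.81%), and 41 groups of at least 2 adjacent genes were called in 1 direction, 14 higher and 27 lower. The 2 groups of 3 were both higher, Cbfa2t3, Acsf3 and Cdh15 (chr8:122625141-122867397) and H2-Q7, Tcf19 and Cchcr1 (chr17:35439155-35531015). Cbfa2t3, a transcriptional corepressor, was at 235, 299, 435, 362 and 379 CPM in the controls and 618, 678.5, 591 and 585 CPM in KO libraries (log2 change 0.85, SE 0.179, edgeR adjusted p = 0.0194). Its call was lost in 6 of 9 leave-one-out fits and that of Tcf19, in the other group of 3, in 7. Acsf3 ended 30.1 kb before Cdh15 on the same strand, and the tested genes beyond the group were not called, Trappc2l on one side (log2 change -0.09) and Ankrd11 on the other (0.12). Around Snx11, Copz2 and Cdk5rap3 also rose, from 2.83 ± 1.26 to 8.24 ± 3.62 CPM and from 119 ± 12.4 to 215 ± 24 CPM, and were named after their values were seen. The groups overlapped for Copz2, whose call was lost in 5 of 9 leave-one-out fits. Cbx1 and Nfe2l1, between Snx11 and Copz2, had log2 changes of 0.53 and 0.21 without a call. Farther on, Scrn2, at 20.6 ± 3.65 against 31.8 ± 3.48 CPM, was called higher too (edgeR adjusted p = 0.0451), and in 2 of 9 leave-one-out fits.

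Genes close to Kmt2d travel with its edited allele, so an effect of flanking DNA and an effect of the knockout cannot be told apart there. Of 51 tested genes within 1 Mb of Kmt2d, 3 were called (5.88%), and of 136 within 5 Mb 7 were (5.15%), against 3.81% of all genes with coordinates. Smarcd1 (values above) and Asic1, an acid-sensing channel, lie next to each other there and both fell. Asic1 was at 44.5, 61.8, 72.4, 61.8 and 64.2 CPM in the controls and 37.9, 34.9, 25.5 and 26.8 CPM in KO libraries, with a call lost in 8 of 9 leave-one-out fits. Fkbp11, a chaperone of the secretory pathway, rose from 0.434 ± 0.258 to 2.41 ± 0.7497 CPM, a call lost in 5 of those fits.

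**Figure D5:**
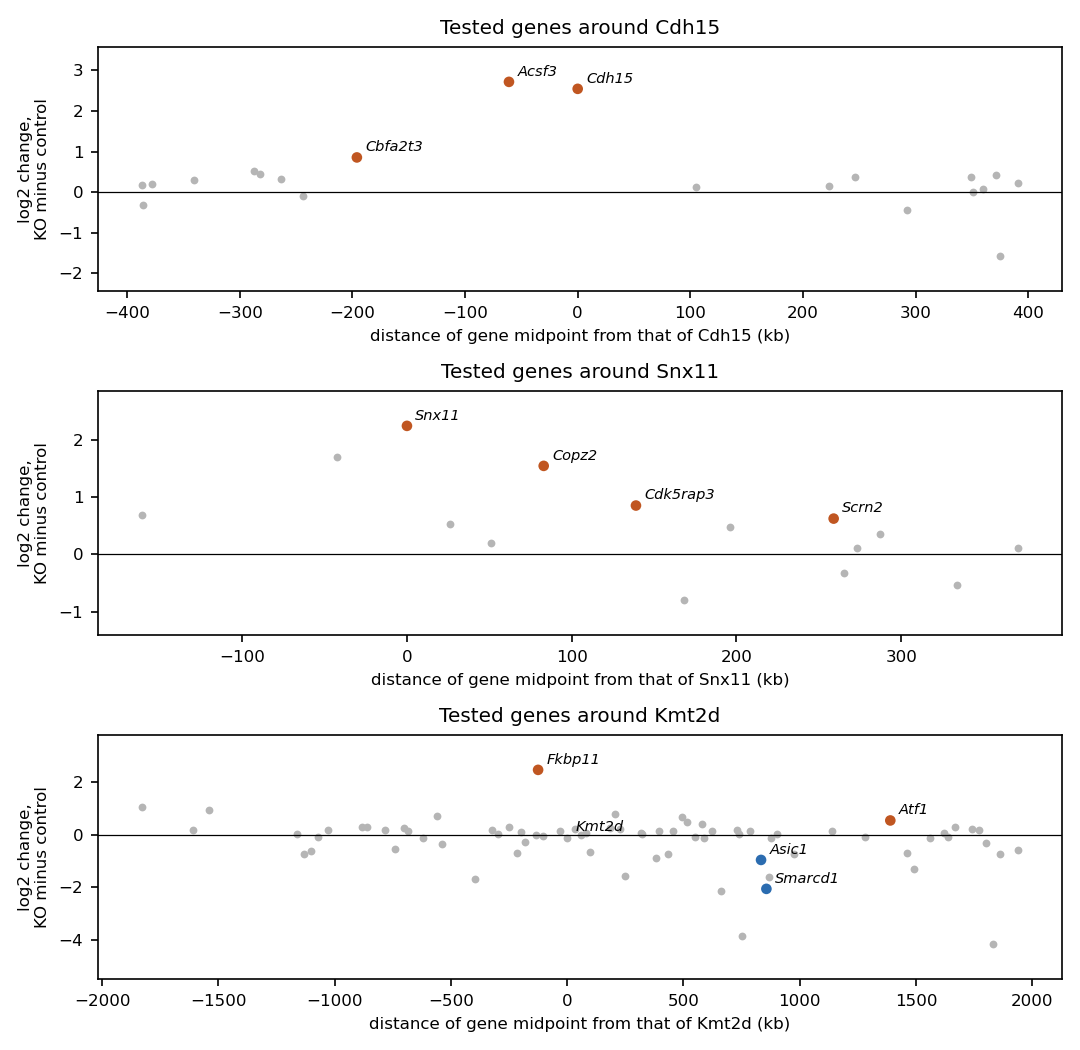
Log2 change (KO primary minus control primary) of tested genes by the distance in kb of their midpoint from that of Cdh15, Snx11 or Kmt2d. Orange points were called higher, blue points lower and grey points not called. The rises of Cbfa2t3, Acsf3 and Cdh15 stand beside genes that were not called, and Kmt2d itself has a log2 change of -0.11.

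Marker genes of other cells were detected in both groups, and most of their lists had a negative median log2 change. The 14 tested microglial markers were all negative (median -1.95) with none called by edgeR, 7 at an unadjusted p below 0.05, 2 called by DESeq2 and none by voom. Their summed level was 12.2 to 92.4 CPM in controls and 4.97 to 19.3 CPM in KO libraries, and none was at 0 in all 9. The 11 oligodendrocyte markers were negative too (median -1.58, sums of 148 to 423 against 74.1 to 116 CPM, 1 called, Opalin, in 2 of 9 leave-one-out fits). The 6 erythroid markers were negative (sums of 3.88 to 16.1 against 2.75 to 5.37 CPM), with none called by edgeR or voom and 2 by DESeq2. Median log2 changes were -1.47 for ependymal and choroid plexus, -1.18 for GABAergic interneuron (3 tested), -0.92 for oligodendrocyte precursor, -0.66 for fibroblast and -0.53 for astrocyte markers. The fibroblast median turned positive in 3 of 21 alternatives, with voom, without control 3 and without the libraries of high receptor counts (0.15). Endothelial markers summed to 29.7 to 72.1 against 23.5 to 41.2 CPM with none of 11 called by edgeR, DESeq2 or voom and none at an unadjusted edgeR p below 0.05. In the pericyte list, picked out after its values were seen, 2 of 9 tested rose and none fell (median 0.24, negative in 5 of 21 alternatives). These were the adjacent genes Kcnj8 and Abcc9, whose calls were lost in 3 and 4 of 9 leave-one-out fits, without the female controls and with sex as a covariate, while the defining markers Pdgfrb and Rgs5 stood at 0.873 ± 1.79 against 0.352 ± 0.704 and 0.3896 ± 0.311 against 0.4604 ± 0.553 CPM. In these bulk samples fewer cells of a type and less RNA per cell cannot be told apart, and the part of other cells in the results above was not tested.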

How the data were processed

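RNA was sequenced from 13 libraries made with an Illumina TruSeq RNA kit, per the labels. The deposited values are raw read counts per gene, made by the authors; the submitters' processing notes list STAR 2.4, HTSeq 0.6.1, DESeq2 and mm10, and the sources at hand give no strand setting. Counts were tested as deposited with edgeR 4.0.16 (R 4.3.3), a quasi-likelihood F test of 13 libraries in 3 groups, after filterByExpr (minimum count 10, minimum total 15) and TMM scaling. The call required a p, adjusted by Benjamini-Hochberg over all tested genes, below 0.05. CPM values are scaled by TMM and are not corrected for gene length. Voom is the limma 3.58.1 fit with quality weights, and DESeq2 1.42.0 was another alternative. The edgeR step was tested on simulated data.

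Named genes are Kmt2d, Smo, the 10 rises and 10 falls with the smallest p (at least 5 CPM, no overlap of groups), up to 3 called members of each list with the smallest p (at least 2 CPM), and called runs of 3 adjacent genes. Predicted genes and related copies were left out. The members, lists and rule were chosen with earlier results of these data known. Gene positions are those of GENCODE on GRCm38, and promoters come from RefSeq on GRCm38.p6. The title and the location label give different hemispheres for KO 7, and the title was used. Libraries of the same number were not clearly alike across the groups (correlations of deviations -0.528, 0.272, 0.0377 and -0.382 for numbers 3, 4, 6 and 7). KO 7 matched control 3 best, and both had high receptor counts. With that background in the deviations, this check cannot tell whether the numbers mark a shared origin. Tests across libraries used 23.5 to 41.4 M counts each. Metastases entered the fit for its estimate of spread and are not compared here. Results of some called genes are not reported here.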

Additional observations from a re-analysis of the deposited data

Results flagged for a closer look

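In 23 of 334 groups of libraries (167 named genes, KO and control each), 1 library stood far from the others of its group by Dixon's criterion. That is 6.89% of groups. The cut-offs flag about 1 in 20 groups of independent normal values. Here the values were CPM without a log, the genes shared the same 9 libraries and 165 of the 167 were called. The rate of chance flags for such groups is not known. KO 7 was that library 5 times, KO 6 and control 5 were 4 times each, control 3 and control 4 were 3 times each, KO 3 was 2 times, and control 6 and control 7 once each.

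Control 4 was highest of its group for Pacsin1 at 36.4 CPM (others 30.3 to 32), Syp at 121 CPM (others 70.7 to 80.3) and Ntrk2 at 66.2 CPM (others 36.7 to 42.6). Control 3 was lowest of its group for Trim46 at 16.5 CPM (others 22.6 to 25), E2f5 at 35.2 CPM (others 40.5 to 42.5) and Efnb3 at 31.4 CPM (others 57 to 67.2). KO 6 was lowest of its group for Ano4 at 1.82 CPM (others 3.01 to 3.15) and Cdh13 at 23.6 CPM (others 34.3 to 36.3). KO 6 was highest of its group for Krt10 at 46.7 CPM (others 19.3 to 23.2) and Rgs17 at 6.37 CPM (others 5.06 to 5.18). KO 7 was highest of its group for Grm4 at 2.57 CPM (others 0.443 to 0.635), Dlg4 at 14 CPM (others 8.49 to 9.43), Dll4 at 4.2 CPM (others 1.41 to 1.59) and Cchcr1 at 65.7 CPM (others 51.1 to 52.2). KO 7 was lowest of its group for Brd7 at 172 CPM (others 205 to 208). KO 3 was lowest of its group for Cxcl12 at 10.9 CPM (others 12.9 to 13). KO 3 was highest of its group for Hadha at 107 CPM (others 93.9 to 95.3). Control 5 was highest of its group for Mfng at 87.8 CPM (others 20.3 to 36.8), Grb10 at 7.94 CPM (others 1.06 to 2.85), Rdh5 at 50.2 CPM (others 28.4 to 34.2) and Mfap4 at 130.0 CPM (others 48.7 to 66.9). Control 7 was highest of its group for H2-Q7 at 0.619 CPM (others 0.0296 to 0.193). Control 6 was highest of its group for Gsto1 at 22.2 CPM (others 0.646 to 6.3).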

How the results depend on the processing

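Each of 21 alternatives kept the sign of every one of the 653 called genes it tested, and 95 genes were called in all of them (25 higher, 70 lower). DESeq2 called 1648 genes (681 higher, 967 lower, 896 at least 2-fold) and voom 3267 (1636, 1631 and 1489), so that 50.1% of voom calls were higher against 39.4% with edgeR. Without the 4 libraries of high receptor counts 1427 were called (548, 879 and 1014), and with the receptor level as a covariate 1118 (487, 631 and 751). Without the 3 female controls 138 were called (60, 78 and 138), and with sex as a covariate 342 (136, 206 and 313). A mean of at least 1 CPM as the filter gave 615 lower genes. Leaving out 1 library gave 277 to 1032 called genes, 94 to 392 higher, 183 to 640 lower and 249 to 663 at least 2-fold. The causes of these shifts were not tested. With the replicate number as a block 672 genes were called, 492 of the 653 among them, but the numbers share no stated origin. The log2 change of Kmt2d, never called, was 0.0233 under that block, 0.37 without the female controls and 0.34 with sex as a covariate, and it ran from -0.34 to 0.01002 over the fits without 1 library. Of 6510 tested genes under 1 CPM in both groups 1 was called, and the part of depth in this was not tested.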

Other observations

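Mndal, an interferon-inducible gene picked after its values were seen, split the controls. It stood at 54.0, 43.2 and 40.3 CPM in controls 4, 6 and 7, and at 0.152 and 0.038 CPM in controls 3 and 5. In KO libraries 3, 4, 6 and 7 it stood at 0, 0, 0.159 and 0.569 CPM. The groups overlapped, and the gene was called lower in KO libraries (edgeR adjusted p = 0.0487), in 2 of 9 leave-one-out fits.

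In the list of MHC class I and antigen presentation genes 3 of 26 tested rose (11.5%, against 1.15% of all genes) and none fell. The call of Tap2, 1 of the 3, was lost in 8 of 9 leave-one-out fits. H2-Q7, a class Ib gene and another of the 3, ranged from 0.0296 to 0.619 CPM in controls. It passed the count filter through libraries where it was high, so the share of the list rests partly on that. The summed level of the list was 1650 to 2450 CPM in controls and 1480 to 2060 CPM in KO libraries, with no rise.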
